A study of Mus musculus with 24 samples.

Results

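The mitochondrial genome encodes a small set of respiratory chain subunits, and the mRNAs of 8 of them were looked for in epididymal white adipose tissue (eWAT) of mice: mt-Nd1, mt-Nd2 and mt-Nd4 of complex I, mt-Cytb of complex III, mt-Co1, mt-Co2 and mt-Co3 of complex IV, and mt-Atp6 of ATP synthase. They were taken by gene symbol from the deposited tables, which hold 16730 genes. Rows were found for 5 of the 8, mt-Co1, mt-Cytb, mt-Nd1, mt-Nd2 and mt-Nd4. The mRNAs mt-Co2, mt-Co3 and mt-Atp6 were not analysed here. Of the other RNAs of the mitochondrial genome, rows were found for mt-Nd3, mt-Nd5 and mt-Nd6, for both rRNAs and for 14 of 22 tRNAs, which gives 24 mitochondrial rows in all.

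Messenger RNA was sequenced from its 3′ end (QuantSeq, 50-base reads) in 24 male mice on the C57BL/6J background, 6 in each of 4 groups. Controls, labelled wild type (floxed), carried floxed alleles of Lama4, the laminin α4 chain of the basement membrane (Lama4 fl/fl). Their Lama4 AKO littermates carried the same alleles and an adiponectin-driven Cre, which deletes exon 3 in adipocytes and leaves the gene intact in the other cells of the fat pad. Mice of either genotype ate chow or a high-fat diet with 45% of its energy as fat (HFD) for 20 weeks and were 24 to 26 weeks old at collection. The question put to these mRNAs was whether diet, genotype or the combination of both moved them.

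Mitochondrial DNA is transcribed from both strands as long precursors, which are cut, mostly at the tRNAs, into mRNAs and rRNAs. Most of the mRNAs are then polyadenylated. A mitochondrial mRNA level therefore depends on transcription of the whole precursor and on how long each cut piece lasts. White adipocytes hold fewer mitochondria than brown adipocytes. Stretches of mitochondrial DNA have also been copied into the nuclear genome during evolution, and some of these copies are annotated as pseudogenes.

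The ends of the 8 mRNAs are shown first, because 3′ sequencing reads them and because several are identical to nuclear copies. Each line gives the last 60 bases, 5′ to 3′, on the forward strand of the mitochondrial chromosome of GRCm38, as annotated in release 21 of the GENCODE mouse transcripts. Capitals mark bases that lie in a 50-base stretch found without mismatch in a transcript of a nuclear gene.
mt-Nd1: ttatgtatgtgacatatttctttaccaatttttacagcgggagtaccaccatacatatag
mt-Nd2: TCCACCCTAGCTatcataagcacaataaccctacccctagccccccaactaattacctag
mt-Nd4: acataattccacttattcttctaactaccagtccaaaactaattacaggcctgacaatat
mt-Cytb: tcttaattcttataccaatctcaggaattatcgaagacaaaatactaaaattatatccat
mt-Co1: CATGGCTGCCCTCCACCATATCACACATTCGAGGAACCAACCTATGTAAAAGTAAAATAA
mt-Co2: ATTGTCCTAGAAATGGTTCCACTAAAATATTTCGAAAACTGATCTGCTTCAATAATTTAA
mt-Co3: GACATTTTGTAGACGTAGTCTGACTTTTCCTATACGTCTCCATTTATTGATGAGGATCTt
mt-Atp6: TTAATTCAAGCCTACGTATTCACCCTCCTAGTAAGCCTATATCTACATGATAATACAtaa

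The ends of mt-Nd1, mt-Nd4 and mt-Cytb held no such stretch, whereas that of mt-Co1 lay in one over all 60 bases. In the last 300 bases of each mRNA, 251 windows of 50 bases can be laid. All 251 were found in a nuclear transcript for mt-Co1 and for mt-Co2, 250 for mt-Co3 and 248 for mt-Atp6. The number was 80 for mt-Nd2 and 0 for mt-Nd1, mt-Nd4 and mt-Cytb. Over its whole length mt-Nd4 did share 827 of 1329 windows with the pseudogene Gm28439, but these lie upstream of the last 300 bases. The ends of mt-Co2, mt-Co3 and mt-Atp6, which were not analysed, are thus nearly or wholly copied in the nuclear genome, and so is that of mt-Co1, which was analysed. Outside the 8, mt-Nd3 was analysed and had 248 of 251 such windows. Neither mt-Nd4l nor mt-Atp8 was analysed, with 245 of 248 and 0 of 155 windows. How the authors' aligner treated reads that match more than 1 place is not given in the sources used here, and its part in the levels was not tested.

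**Figure D1:**
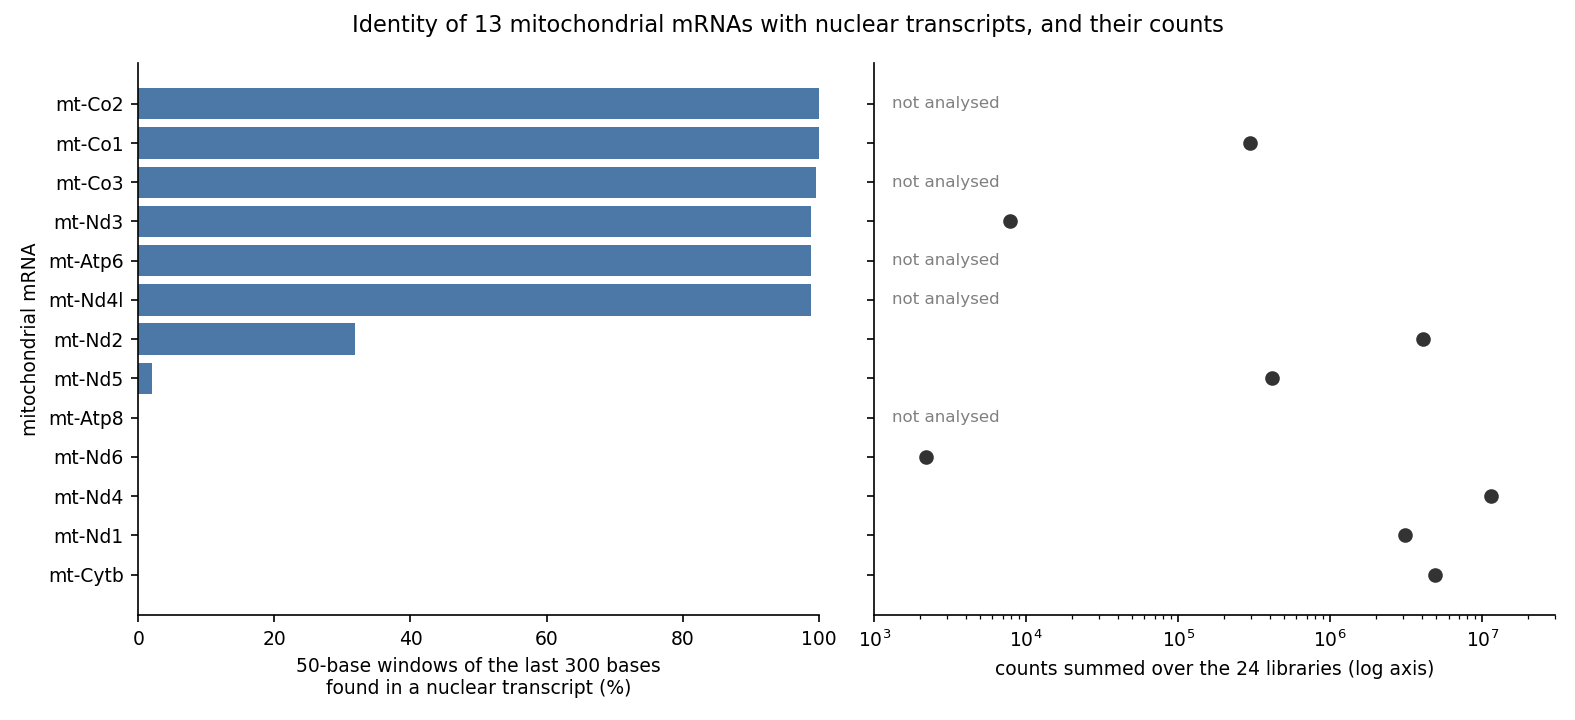
Left, for each of 13 mitochondrial mRNAs, the percentage of 50-base windows in the last 300 bases that were found without mismatch in a nuclear transcript of the GENCODE annotation. Right, the deposited counts of the same mRNA summed over the 24 libraries on a log axis; mt-Nd4, mt-Cytb, mt-Nd2 and mt-Nd1 had 3112446 counts or more each, and mt-Co1 had 296587.

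On GRCm38, the 5 measured mRNAs lie on the forward strand of the mitochondrial chromosome in the order mt-Nd1 (2751 to 3707), mt-Nd2 (3914 to 4951), mt-Co1 (5328 to 6872), mt-Nd4 (10167 to 11544) and mt-Cytb (14145 to 15288). Among the rows with a nuclear copy of mt-Co1, the pseudogene Gm13340 on chromosome 2 shared 411 windows with it and had 3644 counts over all libraries, 1.23% of those of mt-Co1. Gm13339, which shared 81 windows with mt-Nd2, had 203 counts against 4082598 for mt-Nd2.

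The libraries held 5579590 to 18764516 counts. Markers of adipocytes (8 of 8 listed, such as Adipoq and Plin1) were present in every library, at a summed level of 8763 to 46339 CPM (counts scaled to the same library total). Of 8 markers of the neighbouring epididymis 3 had a row, at a summed level of 0 to 22.9 CPM. The 3′ reads lie far from exon 3, so the Lama4 count does not show whether that exon is missing. By quantitative PCR, the study reported less Lama4 mRNA in eWAT of chow-fed Lama4 AKO mice than of controls. The counts on chow did not show such a fall. Lama4 had 98.4 ± 53.8 CPM (SD, n = 6) in chow-fed Lama4 fl/fl mice and 106 ± 25.9 CPM (n = 6) in chow-fed Lama4 AKO mice. With HFD it had 82.5 ± 42.2 CPM in Lama4 fl/fl and 51.2 ± 20.6 CPM in Lama4 AKO mice (SD, n = 6 each; log2 fold change -0.69, edgeR adjusted p = 0.347). The study left out some libraries without naming them. From its plotted points, earlier work on these data inferred them to be chow-fed Lama4 fl/fl mouse 3, chow-fed Lama4 AKO mouse 5 and HFD-fed Lama4 fl/fl mice 3, 4 and 6. All 5 lie within the range of the other diet's remaining mice on the first principal component, which holds 45.8% of the variance, as do 3 mice near its middle that were kept. Results are therefore given for all 24 mice and for the remaining 19. Since the 5 were inferred from the data, the 19-mouse values are no independent evidence.

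Together the 5 mRNAs took up 4.59% to 9.36% of all counts of a library. It ran from 6.12% to 9.28% (median 7.58%) in chow-fed Lama4 fl/fl mice and from 4.59% to 9.36% (median 6.10%) in chow-fed Lama4 AKO mice. With HFD it ran from 5.12% to 9.05% (median 8.33%) in Lama4 fl/fl mice and from 6.33% to 9.03% (median 7.11%) in Lama4 AKO mice. The groups overlapped in every comparison, and the means of 7.84 ± 1.19%, 6.43 ± 1.78%, 7.86 ± 1.51% and 7.22 ± 0.977% (SD, n = 6 each) differed by less than the largest of these SDs.

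Per kilobase of mRNA, mt-Nd4 had the highest level, at 25765 ± 7574 CPM per kilobase (SD, n = 24 mice). It was followed by mt-Cytb at 13215 ± 2817, mt-Nd2 at 11851 ± 5227 and mt-Nd1 at 9971 ± 1729 CPM per kilobase, 3 neighbours whose ranges over the mice overlap. Far below them came mt-Co1 at 579 ± 166 CPM per kilobase, and its highest mouse (992) was below the lowest mouse of each of the others. Of the other mRNAs, mt-Nd5 had 687 ± 140, mt-Nd3 69.0 ± 57 and mt-Nd6, the only mRNA on the reverse strand, 12.4 ± 8.32 CPM per kilobase. Levels from 3′ reads do not grow with transcript length, and the ends of mt-Co1 and mt-Nd3 have nuclear copies, so this order describes counts rather than molecules. Of 251 windows at the end, 80 were copied for mt-Nd2, 5 for mt-Nd5 and 0 for mt-Nd6. The part of nuclear copies in the order was not tested.

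**Figure D2:**
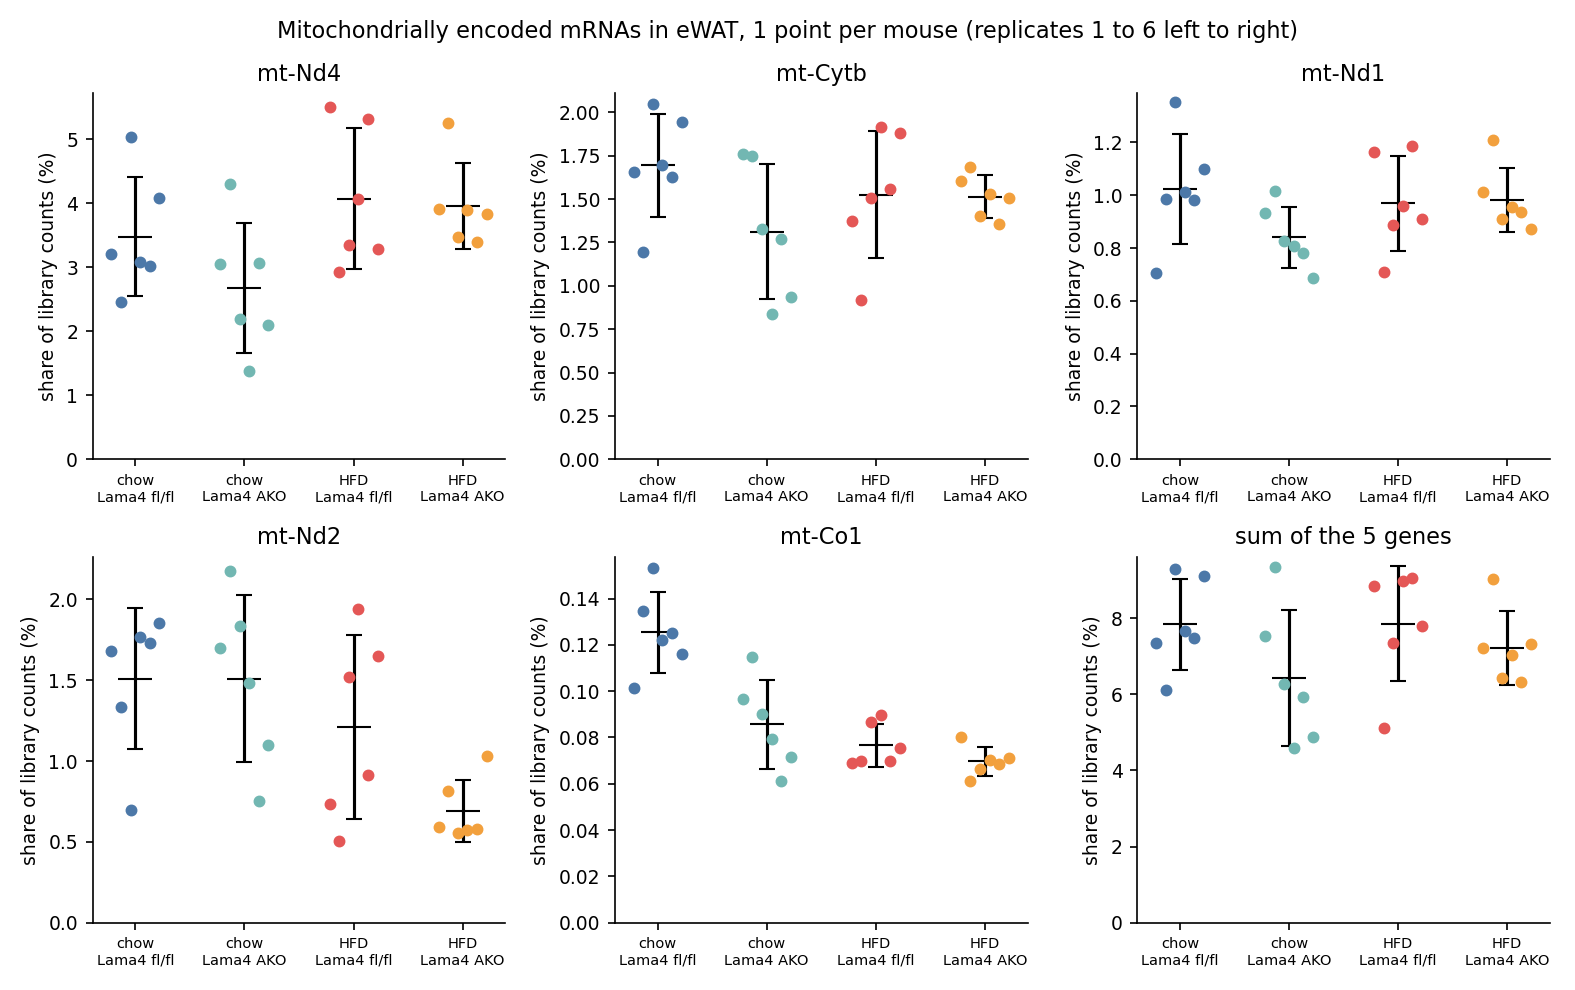
Share of all counts of the library (percent) for each of the 5 mRNAs and for their sum; 1 point per mouse in 4 groups of 6, with the mean (horizontal bar) and SD (vertical bar). The mt-Co1 points of the HFD-fed Lama4 fl/fl mice lie below all those of the chow-fed Lama4 fl/fl mice, and the mt-Nd2 points of both Lama4 fl/fl groups and of the chow-fed Lama4 AKO mice spread widely.

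mt-Co1, the catalytic core subunit of cytochrome c oxidase, was lower in HFD-fed than in chow-fed Lama4 fl/fl mice. Its share of library counts was 0.102%, 0.135%, 0.153%, 0.122%, 0.125% and 0.116% in chow-fed Lama4 fl/fl mice 1 to 6. It was 0.0690%, 0.0698%, 0.0866%, 0.0897%, 0.0697% and 0.0753% in the HFD-fed mice 1 to 6. The 2 groups did not overlap, and the share of all genes that separate in this way was not counted. The 4 libraries of these groups that the 19-mouse set leaves out also followed their diet label: chow-fed mouse 3 was the highest of all, and HFD-fed mice 3, 4 and 6 were below every chow-fed Lama4 fl/fl mouse. Within the HFD-fed group, however, mice 3, 4 and 6 had the highest shares. The log2 fold change was -0.77 ± 0.17 (SE, n = 6 against 6) with a nominal p of 0.000102 by edgeR's quasi-likelihood test.

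This met the study's criteria for a call, which ask for a nominal p up to 0.001, a 1.5-fold change or more, and 2 CPM or more on average in whichever group is higher. The Benjamini-Hochberg adjusted p over the 15020 genes tested was 0.293. Of those genes, 0.173% were called in this comparison, and mt-Co1 was the 1 call among the 5 measured mRNAs. Without the 5 libraries the change was -0.88 ± 0.19 (SE, n = 5 against 3) with an adjusted p of 0.00226.

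Among Lama4 AKO mice the share of mt-Co1 ran from 0.0613% to 0.115% (median 0.0849%) on chow and from 0.0613% to 0.0803% (median 0.0696%) on HFD, and the groups overlapped. Chow-fed Lama4 AKO mouse 5, the other library that the 19-mouse set leaves out, had the lowest mt-Co1 share of all 24 mice and so went against its diet label. The log2 fold change was -0.36 ± 0.16 (SE) with an adjusted p of 0.108. The interaction of diet and genotype, which tests whether the 2 responses differ, was 0.41 ± 0.23 (SE) with an adjusted p of 0.374, so a difference between the genotypes was not shown. Averaged over both genotypes (12 mice against 12), mt-Co1 fell by 0.56 ± 0.12 (SE) on the log2 scale with an adjusted p of 0.0142, just short of the 1.5-fold criterion.

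mt-Nd2, a membrane subunit of complex I, was lower in HFD-fed than in chow-fed Lama4 AKO mice. Its share was 1.70%, 2.18%, 1.83%, 1.48%, 0.752% and 1.10% in chow-fed Lama4 AKO mice 1 to 6, and 0.591%, 0.817%, 0.558%, 0.573%, 0.582% and 1.03% in the HFD-fed ones. The groups overlapped only through chow-fed mouse 5, which the 19-mouse set leaves out, and HFD-fed mice 2 and 6. The log2 fold change was -1.19 ± 0.33 (SE) with a nominal p of 0.00157 and an adjusted p of 0.0232. This missed the nominal threshold of the call rule, which 4.12% of all genes met, but passed an adjusted p of 0.05, as 22.1% of all genes did. Among the 5 mRNAs, 0 were called by edgeR, 2 had an unadjusted p under 0.05 (mt-Nd2 and mt-Co1), and 1 (mt-Nd2) was called by DESeq2 and 0 by limma-voom.

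The Lama4 fl/fl mice split in mt-Nd2 within both diets. Its share was 1.68%, 1.33%, 0.700%, 1.77%, 1.73% and 1.85% in chow-fed mice 1 to 6 and 0.737%, 0.504%, 1.52%, 1.94%, 0.912% and 1.65% in the HFD-fed mice. The 4 values that lie with the other diet belong to chow-fed mouse 3 and HFD-fed mice 3, 4 and 6. With all mice the log2 fold change was -0.36 ± 0.33 (SE) with an adjusted p of 0.756, and without the 5 libraries it was -1.32 ± 0.30 (SE) with an adjusted p of 0.00328. The 19-mouse value in Lama4 AKO mice was -1.34 ± 0.23 (SE) with an adjusted p of 0.000424. The interaction was -0.83 ± 0.47 (SE, adjusted p = 0.371) with 24 mice and -0.02 ± 0.36 (SE, adjusted p = 0.991) with 19.

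The other 3 mRNAs were not called in any comparison of diet. mt-Nd4, a core subunit of complex I and the most abundant of the 5, ran from 2.47% to 5.03% (median 3.14%) in chow-fed and from 2.92% to 5.51% (median 3.71%) in HFD-fed Lama4 fl/fl mice. For Lama4 AKO mice it ran from 1.38% to 4.30% (median 2.62%) on chow and from 3.39% to 5.26% (median 3.86%) on HFD. The groups overlapped in both genotypes, with log2 fold changes of 0.16 ± 0.26 (SE, adjusted p = 0.884) in Lama4 fl/fl and 0.49 ± 0.26 (SE, adjusted p = 0.161) in Lama4 AKO mice.

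mt-Cytb encodes cytochrome b, the core of complex III. Its share ran from 1.20% to 2.05% (median 1.68%) on chow and from 0.920% to 1.91% (median 1.53%) on HFD in Lama4 fl/fl mice. Lama4 AKO mice had from 0.836% to 1.76% (median 1.3%) on chow and from 1.36% to 1.69% (median 1.52%) on HFD. The diets overlapped in both genotypes. The log2 fold changes of -0.21 ± 0.23 and 0.14 ± 0.23 (SE) had adjusted p-values of 0.803 and 0.668.

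mt-Nd1 is another core subunit of complex I. Its share ran from 0.706% to 1.35% (median 0.998%) on chow and from 0.709% to 1.19% (median 0.936%) on HFD in Lama4 fl/fl mice. It ran from 0.688% to 1.01% (median 0.818%) on chow and from 0.873% to 1.21% (median 0.946%) on HFD in Lama4 AKO mice, again with overlap in both genotypes. The log2 fold changes were -0.14 ± 0.18 (SE, adjusted p = 0.837) and 0.16 ± 0.18 (SE, adjusted p = 0.498).

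**Figure D3:**
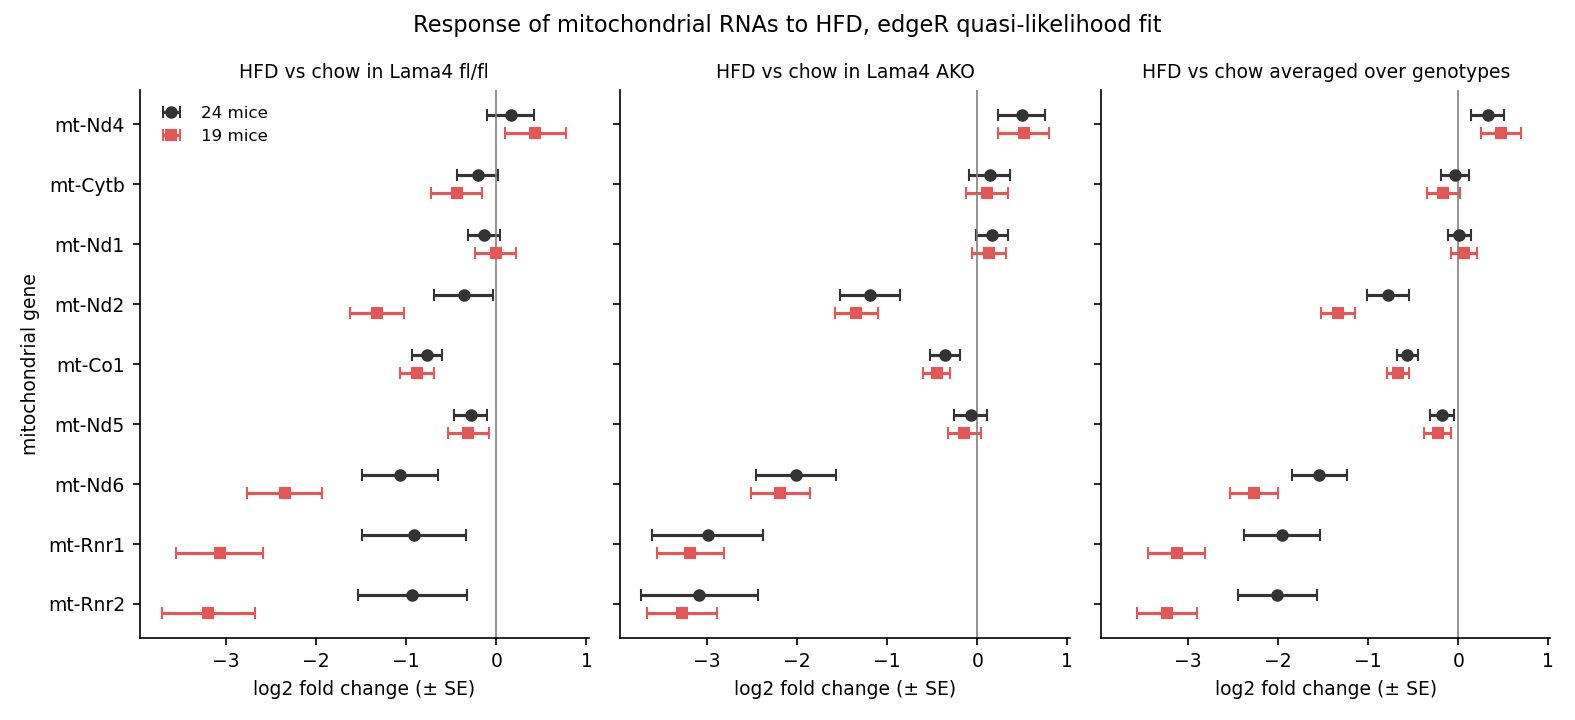
Log2 fold change of HFD against chow (bars are SE) from the edgeR fit for the 5 mRNAs, mt-Nd5, mt-Nd6 and the 2 mitochondrial rRNAs, in Lama4 fl/fl mice, in Lama4 AKO mice and averaged over both; circles, 24 mice, squares, the 19-mouse set. The mt-Co1 values differ little between the 2 sets of mice, whereas those of mt-Nd2, mt-Nd6, mt-Rnr1 and mt-Rnr2 in Lama4 fl/fl mice move further below 0 with 19.

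Averaged over genotypes, the median log2 fold change of the 5 mRNAs was -0.03 beside -0.0031 over all genes, 0 of the 5 were called by edgeR (2, mt-Co1 and mt-Nd2, had an unadjusted p under 0.05; DESeq2 called 1 and limma-voom 0), and 2.25% of all genes were called. Those same mRNAs, mt-Co1 (adjusted p = 0.0142) and mt-Nd2 (-0.78 ± 0.23, adjusted p = 0.0379), passed an adjusted p of 0.05, as did 12.4% of all genes. The median of the 5 was -0.21 in Lama4 fl/fl mice, beside -0.0081 over all genes, and in Lama4 AKO mice 0.14, beside -0.0031. With the 19 mice, 2 of the 5 were called in Lama4 fl/fl mice (11.8% of all genes), 1 in Lama4 AKO mice (15.7%) and 2 averaged over genotypes (21.4%), all lower on HFD.

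Genotype moved none of the 5 past the call. On chow, all 5 had negative values in Lama4 AKO against Lama4 fl/fl mice, with a median of -0.42 beside 0.0041 over all genes. This was not particular to the 5. Nuclear subunits were also negative for 34 of 36 of complex I (median -0.28), 3 of 4 of complex II (-0.11) and 7 of 9 of complex III (-0.19). The same held for 11 of 11 of complex IV (-0.29) and 13 of 14 of ATP synthase (-0.24). Among the 5, the largest change was that of mt-Co1, for which 5 of 6 chow-fed Lama4 AKO mice were below every chow-fed Lama4 fl/fl mouse. Its log2 fold change was -0.61 ± 0.17 (SE) with a nominal p of 0.00122 and an adjusted p of 0.634. edgeR called 0 of the 5 here, beside 0.113% of all genes; 1, mt-Co1, had an unadjusted p under 0.05 and was called by DESeq2 and by limma-voom. With 19 mice the change of mt-Co1 was -0.45 ± 0.16 (SE, adjusted p = 0.468), again 0 of the 5 were called and 0.209% of all genes were.

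On HFD the median of the 5 in Lama4 AKO against Lama4 fl/fl mice was -0.09 beside -0.03 over all genes. The value for mt-Nd2 was -0.88 ± 0.33 (SE, adjusted p = 0.293) with 24 mice and -0.07 ± 0.27 (SE, adjusted p = 0.969) with 19. edgeR, DESeq2 and limma-voom each called 0 of the 5 with 24 mice, 1 (mt-Nd2) had an unadjusted p under 0.05, and 0.173% of all genes were called; with 19 mice 0 of the 5 and 0.565% of all genes were. For the interaction, all 3 tools called 0 of the 5, 0 had an unadjusted p under 0.05, and 0.386% of all genes were called with 24 mice and 0.68% with 19.

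The makeup of the 5 mRNAs differed between mice. mt-Nd2 made up 7.54% to 23.1% of their summed counts in chow-fed Lama4 fl/fl mice, 12.7% to 32.3% in chow-fed Lama4 AKO mice, 8.32% to 21.6% in HFD-fed Lama4 fl/fl mice and 8.15% to 14.1% in HFD-fed Lama4 AKO mice. mt-Nd4 made up 30.1% of the sum at the lowest, in a chow-fed Lama4 AKO mouse, and 62.2% at the highest, in an HFD-fed Lama4 fl/fl mouse. Counted against mt-Nd1, which lies next to mt-Nd2 on the genome and on the same strand, mt-Nd2 had a median of 1.72 counts per mt-Nd1 count on chow and 1.24 on HFD in Lama4 fl/fl mice. Lama4 AKO mice had medians of 1.83 on chow and 0.618 on HFD, and 5 of the 6 HFD-fed mice were below every chow-fed mouse. Being a ratio within a library, it does not depend on the library's total.

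**Figure D4:**
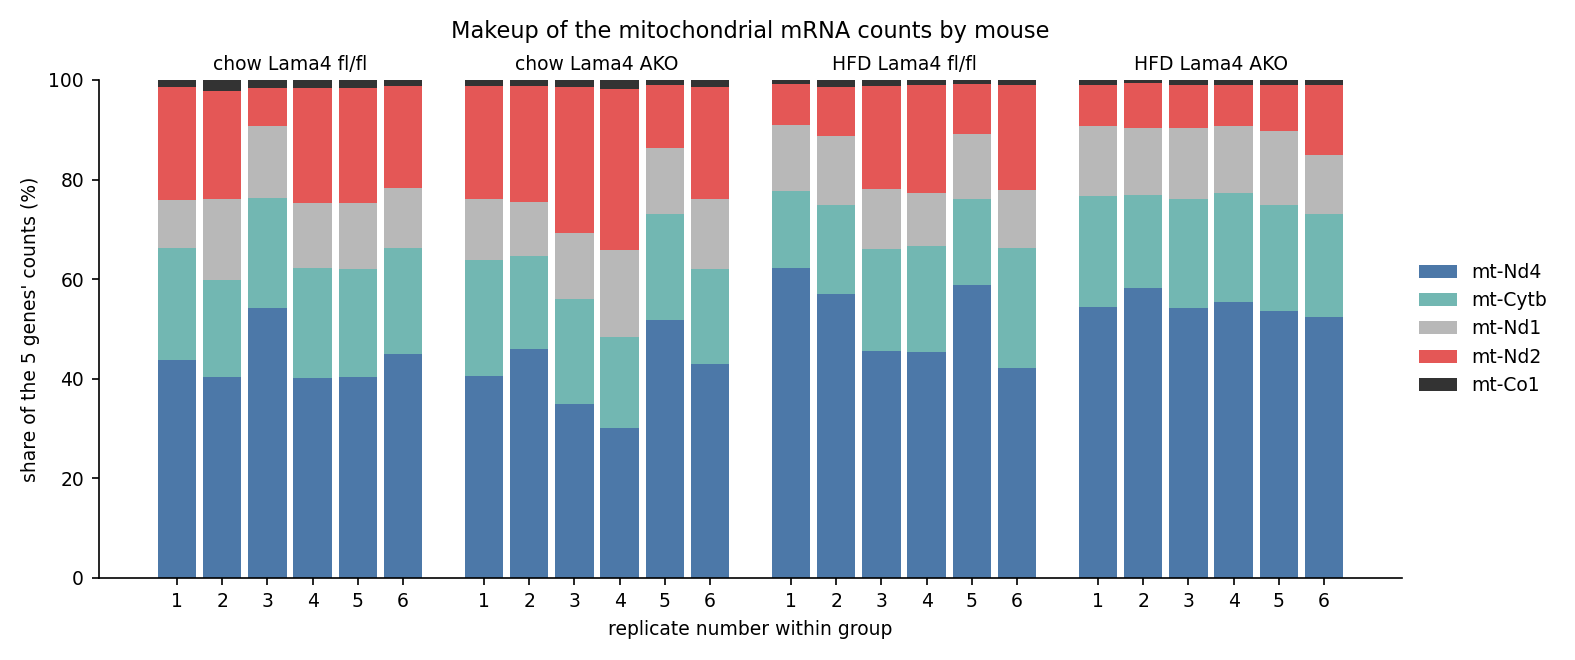
Percentage of the summed counts of the 5 mRNAs that each one makes up, 1 bar per mouse, by group and replicate number. The mt-Nd2 part is below 15% of the bar in all HFD-fed Lama4 AKO mice, in HFD-fed Lama4 fl/fl mice 1, 2 and 5, in chow-fed Lama4 fl/fl mouse 3 and in chow-fed Lama4 AKO mouse 5, and above 20% in the other mice.

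The 11 mice with the lowest mt-Nd2 shares were also the 11 with the lowest shares of mt-Rnr2, the large mitochondrial rRNA. The share of mt-Rnr2 was 3.16%, 1.78%, 0.259%, 2.92%, 3.13% and 1.94% in chow-fed Lama4 fl/fl mice 1 to 6. It was 2.72%, 2.44%, 3.87%, 2.18%, 0.722% and 1.5% in the chow-fed Lama4 AKO mice. It was 0.248%, 0.415%, 1.76%, 2.46%, 0.241% and 1.94% in HFD-fed Lama4 fl/fl mice and 0.174%, 0.213%, 0.199%, 0.180%, 0.199% and 0.691% in HFD-fed Lama4 AKO mice. The diets did not overlap in Lama4 AKO mice and overlapped in Lama4 fl/fl mice, through the 4 libraries of these groups that the 19-mouse set leaves out. Here too the share of all genes without overlap was not counted.

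In the fit, mt-Rnr2 (-3.08 ± 0.65, SE) and the small rRNA mt-Rnr1 (-2.99 ± 0.61, SE) were called lower on HFD in Lama4 AKO mice, both with an adjusted p of 0.0124. The values in Lama4 fl/fl mice were -0.93 ± 0.60 and -0.92 ± 0.57 (SE), with adjusted p-values of 0.662 and 0.648, and with 19 mice -3.20 ± 0.51 and -3.07 ± 0.48. mt-Nd6, the complex I mRNA of the reverse strand, also fell in Lama4 AKO mice (-2.01 ± 0.44, SE, adjusted p = 0.013) and was called, on 15 to 261 counts per library. Of all genes, 4.12% were called in Lama4 AKO mice and 22.1% passed an adjusted p of 0.05. The poly(A) tails of the rRNAs and of mt-Nd6 were not measured, and their part in these counts was not tested. mt-Nd5, whose share ran from 0.0811% to 0.179%, had -0.07 ± 0.18 (SE, adjusted p = 0.787) in Lama4 AKO mice. mt-Nd3 had as few as 17 counts in a library and log2 fold changes of 0.71 ± 0.75 in Lama4 fl/fl and 0.33 ± 0.75 (SE) in Lama4 AKO mice, with adjusted p-values of 0.793 and 0.768.

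**Figure D5:**
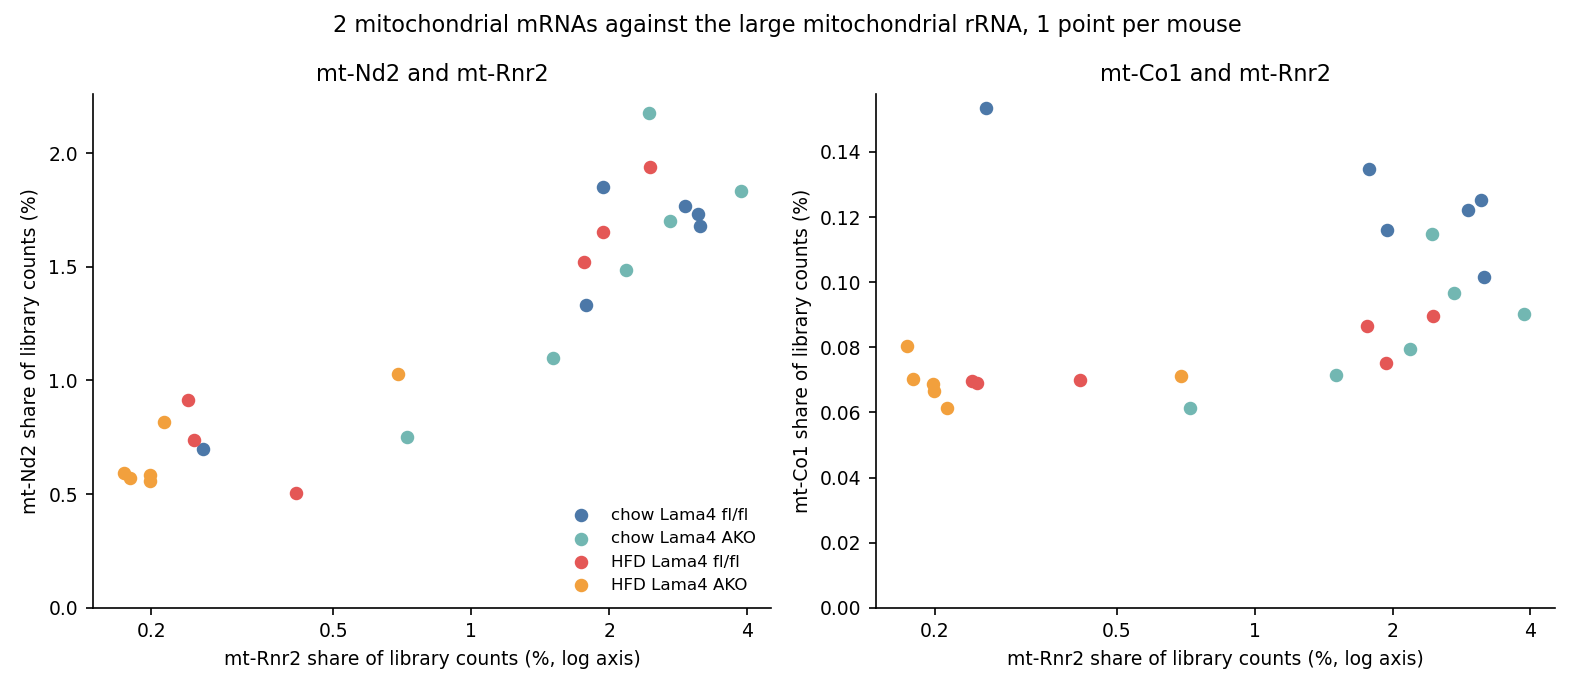
Share of library counts (percent) of mt-Nd2 (left) and mt-Co1 (right) against that of mt-Rnr2 (log axis), 1 point per mouse, coloured by group. mt-Nd2 is at or below 1.03% in every mouse with less than 1% mt-Rnr2; of the mice under 1% mt-Rnr2, 1 chow-fed Lama4 fl/fl mouse has the highest mt-Co1 share of all 24 (0.153%).

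Of the 14 tRNA rows, 13 had negative values on HFD against chow in Lama4 AKO mice, and 2, mt-Tl2 (-1.47 ± 0.48, SE) and mt-Ta (-1.19 ± 0.41, SE), had adjusted p-values of 0.0345 and 0.0423. An adjusted p of 0.05 was passed by 22.1% of all genes in that comparison. Among Lama4 fl/fl mice 1 of the 14, mt-Tt, the threonine tRNA, was called lower (-1.3 ± 0.31, SE, adjusted p = 0.301). On chow it was also called lower in the Lama4 AKO than in the Lama4 fl/fl mice (-1.32 ± 0.31, SE, adjusted p = 0.634), a comparison that shares the chow-fed Lama4 fl/fl mice with the first. Of all genes, 0.173% were called in the first of these comparisons and 0.113% in the second. Mature tRNAs lack a poly(A) tail, and mt-Tt had 9 to 161 counts per library.

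Some markers of several cell types passed an adjusted p of 0.05 for diet in the Lama4 AKO libraries. Their counts are read beside the 22.1% of all genes that passed there, and some lie near that share. The summed level of the 8 adipocyte markers ran from 16367 to 37932 CPM in chow-fed and from 9117 to 25515 CPM in HFD-fed Lama4 AKO mice. Of these markers 3 passed an adjusted p of 0.05, all lower: Lep (-2.10), Adipoq (-1.44) and Lipe (-1.24). The sum of 8 macrophage markers ran from 1937 to 8093 CPM on chow and from 6437 to 11757 CPM on HFD, and 2 passed, both higher: Itgax (1.59) and Cd68 (1.46). The sum of 7 RNAs listed as nuclear-retained ran from 25819 to 47253 CPM on chow and from 6451 to 24749 CPM on HFD in the same mice, without overlap. How often other genes or sums separate in this way was not counted. The largest part of this sum was Gm42418, with means of 27706 CPM on chow and 5711 CPM on HFD, beside 7982 and 3051 CPM for Malat1. The sum thus mainly reflects Gm42418, and whether that RNA stays in the nucleus was not tested. Of the 7 genes 2 passed an adjusted p of 0.05 lower and 2 higher. In Lama4 fl/fl mice the sum of the 7 ran from 4731 to 44784 CPM on chow and from 4872 to 41753 CPM on HFD. The other lists had the following values in the same comparison. The sum of 6 endothelial markers ran from 347 to 699 CPM on chow and from 240 to 478 CPM on HFD in Lama4 AKO mice, and 3 of the 6 passed, all lower (median log2 fold change -0.73). That of the mesothelial markers ran from 28.4 to 153 CPM on chow and from 9.97 to 61.7 CPM on HFD, and 2 of 6 passed, both lower (median -1.44). Of 3 skeletal muscle markers tested 1 passed, lower (median -1.31), and of 6 stromal progenitor markers 1 passed, higher (median 0.32). The medians of the brown adipocyte, lymphocyte and blood markers were -0.38, 0.43 and -0.27. The part of these measures in the mt-Nd2 and rRNA values was not tested. In bulk tissue, fewer cells of a type and less RNA per cell cannot be told apart.

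The nuclear genes that serve mitochondrial expression were called or passed in both directions. Of 8 tested genes of mtDNA transcription, 1 rose and 1 fell on HFD in Lama4 AKO mice at an adjusted p of 0.05: Polrmt, the mitochondrial RNA polymerase (0.47 ± 0.15, SE, adjusted p = 0.033), and Mterf3, a repressor of mitochondrial transcription (-1.12 ± 0.38, SE, adjusted p = 0.0394). Of 8 replication genes 1 passed, Top1mt, the mitochondrial topoisomerase (-0.83 ± 0.25, SE, adjusted p = 0.0269). Of 7 RNA processing genes 1 passed, Fastkd5 (0.48 ± 0.17, SE, adjusted p = 0.0477).

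Of 12 genes of mitochondrial RNA stability, 1 rose and 2 fell in Lama4 AKO mice. Lrpprc, which with its partner protects mitochondrial mRNAs from decay, rose by 0.69 ± 0.24 (SE, log2, adjusted p = 0.0475). Mtpap, the mitochondrial poly(A) polymerase, fell by 0.59 ± 0.16 (SE, adjusted p = 0.023), and the RNA helicase Supv3l1 fell by 1.12 ± 0.32 (SE, adjusted p = 0.0232). Averaged over genotypes, Lrpprc had 0.61 ± 0.17 (SE, adjusted p = 0.0329) and Polrmt 0.37 ± 0.11 (SE, adjusted p = 0.0327).

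Of 17 genes of mitochondrial translation and complex IV assembly, 2 rose and 3 fell in Lama4 AKO mice. Cox15, needed for the heme of the protein that mt-Co1 encodes, was called higher (1.10 ± 0.25, SE, adjusted p = 0.0143), and the membrane insertase Oxa1l was higher by 0.33 ± 0.11 (SE, adjusted p = 0.0375). The initiation factors Mtif2 (-0.93 ± 0.28, SE) and Mtif3 (-0.57 ± 0.14, SE) and the recycling factor Gfm2 (-0.55 ± 0.17, SE) were lower, with adjusted p-values of 0.0289, 0.0164 and 0.0276. Averaged over genotypes, Cox15 was again called higher (0.72 ± 0.17, SE, adjusted p = 0.0232).

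Of 9 regulators of mitochondrial biogenesis, Ppara fell in Lama4 AKO mice (-1.95 ± 0.68, SE, adjusted p = 0.0441), and Pprc1, a relative of the coactivator PGC-1, was called higher averaged over genotypes (0.67 ± 0.18, SE, adjusted p = 0.0286). These shares are read beside the 22.1% of all genes that passed in Lama4 AKO mice and the 12.4% that passed on average.

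Among the nuclear partners of the mitochondrial subunits in Lama4 AKO mice, the lowest p-values of 36 complex I, 4 complex II and 11 complex IV subunits belonged to Ndufa10 (-0.82 ± 0.31, SE, adjusted p = 0.0596), Sdhb (0.16 ± 0.13, SE, adjusted p = 0.353) and Cox7b (0.64 ± 0.26, SE, adjusted p = 0.0787). Of 9 nuclear complex III subunits Cyc1 (-0.53 ± 0.14, SE, adjusted p = 0.0187) and Uqcr11 (-0.58 ± 0.20, SE, adjusted p = 0.039) passed, and of 14 ATP synthase subunits Atp5c1 passed (-0.83 ± 0.23, SE, adjusted p = 0.0231). Of all genes, 22.1% passed an adjusted p of 0.05 in this comparison. The median log2 fold changes of the subunits were -0.04 for complex I, 0.10 for complex II, -0.19 for complex III, 0.08 for complex IV and 0.0029 for ATP synthase, beside -0.0031 over all genes. Averaged over genotypes, Ndufa7 of complex I (-0.40 ± 0.13, SE, adjusted p = 0.0427) and Atp5c1 (-0.53 ± 0.16, SE, adjusted p = 0.04) passed, as did 12.4% of all genes. The interaction was called for 1 of these subunits, Cyc1 (-0.79 ± 0.19, SE, adjusted p = 0.22), and for 0.386% of all genes.

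Within groups, the deviations of log2 CPM from the group mean had a Pearson r between 0.06 (mt-Nd2 with mt-Nd4) and 0.74 (mt-Cytb with mt-Nd4) for pairs of the 5 mRNAs over the 24 libraries. Both values of a pair share the library's total. Outside the mitochondrial genome, genes whose deviations were among the most like the mean of the 5 were Smim8 (r = 0.879), Cyp2j6 (r = 0.876), Sucla2 (r = 0.869), Scoc (r = 0.857), Tmem126b (r = 0.856), Ifi27 (r = 0.856), Dld (r = 0.847), Mkks (r = 0.836) and Mrpl1 (r = 0.831). These values describe the 24 libraries and carry no test.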

How the data were processed

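RNA of eWAT from 24 mice was read by QuantSeq 3′ sequencing. The authors mapped and counted reads with the Lexogen QuantSeq pipeline and deposited raw counts per gene and library. They also deposited a size-factor-scaled signal, in which the raw values of each library are divided by 1 number, of which only the gene symbols were used here. Every row has at least 72 counts in all. The submitters' processing notes name DESeq2 1.30 and R 4.0.3.

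Here counts were fitted in edgeR 4.0.16 (R 4.3.3): genes with at least 1 CPM in 3 mice, TMM factors, the quasi-likelihood test with a mean for each group, and Benjamini-Hochberg adjustment over all genes tested (15020 with 24 mice, 14863 with 19). Shares are percentages of all counts of a library. Totals of 5579590 to 18764516 counts make counting error small for the members and larger for mt-Nd3, mt-Nd6 and the tRNAs. The labels do not pair mice, and p-values measure the spread between them. The members, gene lists and named-gene rule were chosen with earlier results of these data known. Named genes were the mitochondrial rows, Lama4, listed genes called or with an adjusted p of at most 0.05 (at most 5 per list and comparison), the 10 genes most like the members (1 is not reported here), and nuclear copies. Alternatives were the 19 mice, limma-voom 3.58.1, DESeq2 1.42.0, other scalings, filters and thresholds, fits of only the groups compared, a replicate block, and each mouse left out in turn. The fits were tested on simulated data. Sequences are from GENCODE release 21.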

Additional observations from a re-analysis of the deposited data

Results flagged for a closer look

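In 52 sets of 6 mice (13 measures in 4 groups), 1 mouse lay far from the other 5 in 5 sets, all of them HFD-fed Lama4 AKO mice. Chance alone flags about 1 in 20 sets, but the sets are not independent, so the 5 flags cannot be set against that rate. The measures overlap: mt-Rnr1 and mt-Rnr2 had a Pearson r of 0.996 within groups, and mt-Nd4 is part of the summed share. Mouse 2 had the highest share of mt-Nd4, 5.26% against 3.91% in the next mouse, and the highest summed share of the 5 mRNAs, 9.03% against 7.31%. Mouse 6 had the highest share of mt-Rnr1, 0.228% against 0.0757%, and of mt-Rnr2, 0.691% against 0.213%. It also had the most mt-Nd2 per mt-Nd1, 1.18 counts against 0.676.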

How the results depend on the processing

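Counts of called members among 5 changed under these alternatives, and the cause was not tested. Here an adjusted p of 0.05 replaces only the nominal p, and the fold change and CPM criteria are kept, so these counts are lower than those at an adjusted p alone. In Lama4 fl/fl mice on HFD the count of 1 became 2 with 19 mice and 0 at an adjusted p of 0.05. In Lama4 AKO mice the count of 0 became 1 with 19 mice, with DESeq2 and at an adjusted p of 0.05, and 0 to 1 with each mouse left out; it was 1 without chow-fed Lama4 AKO mouse 5 or 6, HFD-fed Lama4 fl/fl mouse 2 or HFD-fed Lama4 AKO mouse 6. Averaged over genotypes, 0 became 2 with 19 mice, 1 with DESeq2, 1 at an adjusted p of 0.05 and 1 with no fold change criterion, and 0 to 2 with each mouse left out (1 without chow-fed Lama4 fl/fl mouse 1 or chow-fed Lama4 AKO mouse 6, and 2 without chow-fed Lama4 AKO mouse 5 or HFD-fed Lama4 fl/fl mouse 4). For genotype on chow, 0 became 1 with limma-voom and with DESeq2, and 0 to 1 with each mouse left out (1 without chow-fed Lama4 fl/fl mouse 1 or chow-fed Lama4 AKO mouse 2).

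Signs turned only for values without a call. For genotype on HFD, mt-Cytb was 0.22 with 19 mice and -0.18 to 0.032 with each mouse left out, mt-Nd1 was 0.019 without TMM factors and -0.12 to 0.027, and mt-Nd4 ran from -0.21 to 0.017. For genotype on chow, mt-Nd2 ran from -0.22 to 0.11. Averaged over genotypes, mt-Cytb was 0.027 without TMM factors and -0.088 to 0.031 with each mouse left out, and mt-Nd1 ran from -0.032 to 0.061. mt-Nd3 on HFD was -0.0077 in Lama4 fl/fl mice with 19 mice, and -0.024 to 0.55 in Lama4 AKO mice with each mouse left out, where mt-Nd5 ran from -0.15 to 0.082. The fall of mt-Co1 in Lama4 fl/fl mice ran from -0.85 to -0.70 with each mouse left out and stayed called.

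Replicate numbers were checked for pairing: 15 of 36 same-numbered pairs had a correlation of deviations over 0.1 (range -0.53 to 0.71), and a mouse correlated best with its own number in 13 of 72 cases. Pairing by number was thus not shown, and pairing by anything else was not tested. With the replicate number as a block, 1 member was called in Lama4 fl/fl mice on HFD and 0 in the other comparisons, as without it. Over all genes, the block moved the calls for genotype on chow from 17 to 10 and for the interaction from 58 to 32. Genes called of all tested moved by over 1.5 times as follows. The 26 in Lama4 fl/fl mice on HFD became 1750 with 19 mice, 60 with DESeq2, 11 in a fit of only those groups and 0 at an adjusted p of 0.05. The 619 in Lama4 AKO mice became 2332, 1315, 1388 and 2422, and the 17 for genotype on chow became 31, 41, 9 and 0. For genotype on HFD the 26 became 84 with 19 mice, 81 with DESeq2 and 0 at an adjusted p of 0.05, the 58 for the interaction became 101, 148 and 1, and the 338 averaged over genotypes became 3186, 632 and 905. With each mouse left out these counts ran from 14 to 63, 299 to 1169, 4 to 65, 13 to 91, 29 to 188 and 204 to 691 in the same order. Depth limits mt-Nd3 and mt-Nd6, with 17 and 15 counts in their lowest libraries.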
